A study of Mus musculus with 17 samples.

Results

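The genes described here encode the proteins of the cytosolic ribosome, measured in mouse cerebral cortex. They were taken by symbol: every gene whose symbol begins with Rpl or Rps followed by a digit, together with Rpsa, Rplp0, Rplp1 and Rplp2, and without the 10 S6 kinase symbols that begin with Rps6k. This rule found 88 of the 22462 genes in the files. They comprise 46 core proteins of the large (60S) subunit and 31 core proteins of the small (40S) subunit. The remaining members are 8 paralogs (Rpl3l, Rpl7l1, Rpl10l, Rpl22l1, Rpl36al, Rpl39l, Rps4y2 and Rps27l), 2 symbols named as pseudogenes (Rpl34-ps1 and Rps19-ps3) and Rps19bp1, a binding protein of Rps19 that is not itself a ribosomal subunit. The core protein made from Fau, as a fusion with a ubiquitin-like protein, carries another symbol and is given separately.

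The ribosome joins a small subunit, which reads the mRNA, to a large subunit, which forms the peptide bond. Its proteins are needed in matched amounts, and cells coordinate their supply mostly at translation, through a pyrimidine tract at the very start of the mRNA, the 5′ terminal oligopyrimidine or TOP tract, which responds to the growth kinase mTOR. Ribosomal protein mRNAs are usually treated as housekeeping transcripts, although some subunits have paralogs with narrower expression.

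PolyA RNA was sequenced from 17 libraries of the cerebral cortex of mice whose strain the labels give as FVN/Swiss. Unsorted whole cortex gave 3 libraries, and 7 purified types gave 2 each: endothelial cells, microglia, neurons, astrocytes, and the oligodendrocyte lineage as precursor cells (OPC), newly formed cells and myelinating cells. No group carried a treatment or allele in the labels, which give no age, purification marker or animal number. Nothing states that libraries of a group came from separate animals, so the p-values measure only how far these libraries differ, and that spread may be technical.

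Values are FPKM, read fragments scaled to transcript length and to the mapped total of the library, as deposited by the authors, who listed every value under 0.1 as 0.1. The sum of FPKM per library ran from 205621 to 389838, and the sequencing depth is unknown. All 8 markers were highest in their own type for astrocytes, neurons, myelinating oligodendrocytes, microglia and endothelial cells, as were 6 of 6 for precursors and 5 of 6 for newly formed oligodendrocytes. Erythroid genes, which mark blood, summed to 16984 and 1189 FPKM in the precursor libraries and to 6875 and 9387 FPKM in the endothelial libraries, against at most 3002 FPKM in any other library. Microglial markers reached 558 and 275 FPKM in the precursors, against at least 9130 FPKM in microglia, and their part in the precursor values was not tested.

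The start of the mRNA is where the TOP tract lies, so a few start regions are shown, from 20 bases before to 25 bases from the RefSeq transcription start, in GRCm38.p6 coordinates (RefSeq). Capitals mark a run of pyrimidines that opens with C, holds at least 4 more C or T, and begins within 5 bases of the annotated start. Rps9 and Rps6 are highly expressed small-subunit members, Rpl13a and Rpl15 have long tracts, Rpl38 is the member with the largest endothelial excess, Rps27 and Rps27l are a core gene and its paralog, and Rpl41 and Rpsa show no such run in this window.
Rps9 (chr7:3704021-3704065, plus strand): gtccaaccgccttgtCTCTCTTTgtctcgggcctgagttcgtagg
Rps6 (chr4:86857343-86857387, minus strand): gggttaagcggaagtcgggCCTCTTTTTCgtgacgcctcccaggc
Rpl13a (chr7:45128721-45128765, minus strand): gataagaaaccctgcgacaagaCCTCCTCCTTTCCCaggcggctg
Rpl15 (chr14:18270962-18271006, minus strand): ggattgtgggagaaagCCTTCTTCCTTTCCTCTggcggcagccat
Rpl38 (chr11:114668560-114668604, plus strand): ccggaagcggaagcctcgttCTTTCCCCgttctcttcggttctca
Rps27 (chr3:90213624-90213668, minus strand): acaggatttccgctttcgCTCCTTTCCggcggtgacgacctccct
Rps27l (chr9:66946066-66946110, plus strand): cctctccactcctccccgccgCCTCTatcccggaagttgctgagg
Rpl41 (chr10:128549144-128549188, minus strand): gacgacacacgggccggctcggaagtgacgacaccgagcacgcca
Rpsa (chr9:120127746-120127790, plus strand): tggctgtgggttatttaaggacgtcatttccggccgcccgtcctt

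Such a run was present on the sense strand of 27 of the 57 core members with an entry (47.4%), against 21.2% of 27025 genes in the same table. Within 20 bases of the start on the sense strand, CTTTCC stood in 17.5% of core members and 4.30% of all genes, CTCTTT in 17.5% and 3.45%, and CTTCCT in 19.3% and 7.16%. These words overlap the pyrimidine run. The counts describe letters in annotated windows and not sites, and an annotated start can lie several bases from the one used.

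The summed FPKM of the 77 core members was 9.83 times as high in endothelial cells as in astrocytes. In astrocytes the core members made up 0.518% and 0.602% of the library sum, the lowest share of any group. In endothelial cells they made up 3.66% and 4.18%, and in microglia 2.49% and 3.05%. The endothelial and microglial libraries lay above all 13 others, and the astrocyte libraries lay below all others.
The groups between them overlapped. The share was 1.23% and 1.37% in neurons, 1.18% and 1.87% in precursors, 1.01% and 1.63% in newly formed oligodendrocytes and 1.18% and 1.26% in myelinating oligodendrocytes. Whole cortex held 1.97%, 1.94% and 1.76%, above every neuronal, astrocytic, newly formed and myelinating library and overlapping with the precursors.
As means the shares were 0.560% ± 0.0596 (SD, n = 2) in astrocytes, 2.77% ± 0.396 (SD, n = 2) in microglia and 3.92% ± 0.366 (SD, n = 2) in endothelial cells, so that the endothelial share was 7.01 times and the microglial share 4.95 times that of astrocytes. In FPKM the core sum was 1218 ± 123 in astrocytes, 10529 ± 1930 in microglia and 11973 ± 1653 in endothelial cells (SD, n = 2 each). FPKM gives relative amounts only, so these shares do not give the amount of ribosomal protein mRNA per cell. In whole cortex, a mixture, fewer cells of a type and less RNA per cell cannot be told apart.
With the erythroid genes left out of the sum the endothelial share was 4.03%. With the 10 most abundant genes outside the family left out, the share in myelinating oligodendrocytes, whose libraries are rich in myelin mRNAs, was 1.93% in place of 1.22%. The large-subunit part of the core sum was 52.2% ± 0.612 in astrocytes and 44.2% ± 0.0142 in endothelial cells (SD, n = 2 each). Its mean was 45.1% in microglia and 46.0% in myelinating oligodendrocytes, near endothelial cells. In the other groups it ran from 50.2% (neurons) to 51.5% (whole cortex), nearer to astrocytes.

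**Figure D1:**
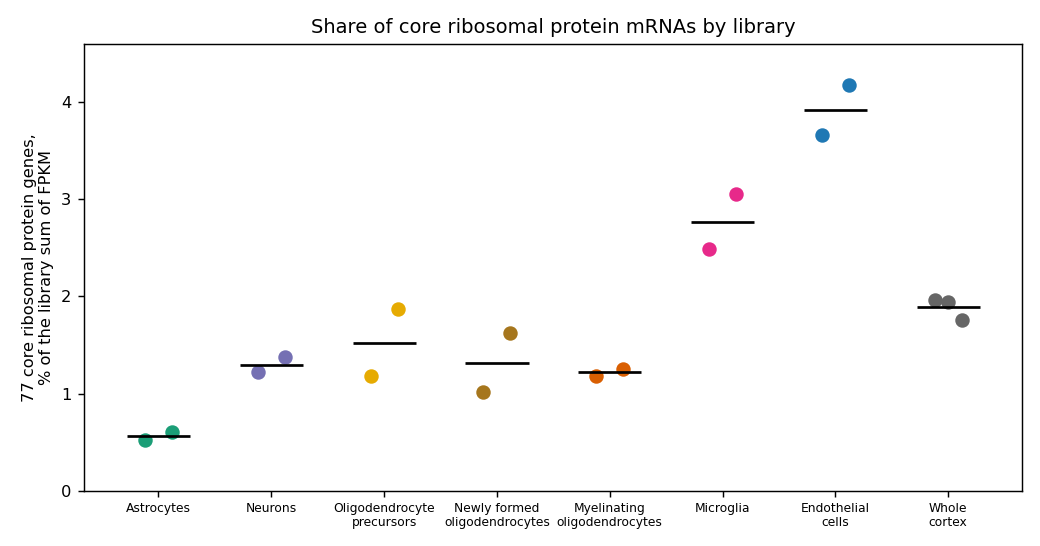
Each point is a library, placed by group on the x axis, and the y axis gives the summed FPKM of the 77 core ribosomal protein genes as a percentage of the library sum; bars are group means. The astrocyte libraries lie at 0.518% and 0.602% and the endothelial libraries at 3.66% and 4.18%, with the 2 precursor libraries apart at 1.18% and 1.87%.

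Core members were mostly higher in replicate 2 in 6 of the 7 purified types. In precursors 68 of the 76 core members tested were higher in replicate 2, with a median ratio of 1.62, and in newly formed oligodendrocytes 73 of 76 were, with a median ratio of 1.69. Over all genes tested the median ratio was 1.03 and 1.00 in the same pairs. The core counts were 58 of 76 in astrocytes (median ratio 1.15), 59 in neurons (1.18), 64 in microglia (1.27) and 68 in endothelial cells (1.24), against median ratios of 1.00 to 1.05 over all genes. In myelinating oligodendrocytes 34 of 76 were higher in replicate 2, with a median ratio of 0.975 against 1.17 over all genes.
Marker sums also differed between the precursor libraries: erythroid genes were at 16984 FPKM in replicate 1 and 1189 FPKM in replicate 2, astrocyte markers at 572 and 267 FPKM, microglial markers at 558 and 275 FPKM, and fibroblast markers at 89.8 and 165 FPKM. In newly formed oligodendrocytes erythroid genes were at 239 FPKM in replicate 1 and 12.3 FPKM in replicate 2. The part of these markers in the replicate differences was not tested.

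Differences were tested with limma on log2(FPKM + 1), over 14011 genes with at least 1 FPKM in at least 2 libraries, and called at a Benjamini-Hochberg adjusted p under 0.05. The fold changes are on this scale and understate the change of low genes. Of the members 84 passed the filter, including 76 of 77 core members, and Rps12, Rpl3l, Rpl10l and Rpl34-ps1 did not. Some low members passed only through groups where they were high, such as Rpl17 (endothelial cells), Rpl10 (microglia) and Rpl39l (both). Their calls in those groups are not independent of the filter, although they are counted below. Each purified type was compared with the mean of the other 6, so these comparisons share libraries. Across the 7 types 81 of 84 members differed by the moderated F test, against 98.6% of all genes, which is no more than the background.

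Astrocytes had low levels of nearly the whole family. Against the mean of the other types 74 of 84 members were lower and 0 were higher at adjusted p under 0.05 by limma, while 35.7% of all genes were lower and 37.3% higher; the median difference was -1.56 on the log2 scale, against 0.02 over all genes. Both astrocyte libraries lay below every other purified library in 59 of 84 members, against 7.06% of all genes. The 29 of 30 tested small-subunit and 39 of 46 large-subunit members that fell included the most abundant ones.
Rps9, a small-subunit protein at the mRNA entry channel, was at 97.6 and 110 FPKM in astrocytes, against 221 FPKM or more in every other library. Rps3, its neighbour at that channel, was at 45.9 and 50.9 FPKM in astrocytes, against 123 FPKM or more elsewhere. The astrocyte values did not overlap with any other group for either gene, and the log2 differences were -2.25 ± 0.18 for Rps9 (SE, adjusted p = 7.46e-08, limma) and -2.37 ± 0.20 for Rps3 (SE, adjusted p = 1.54e-07, limma).
Paralog Rpl22l1 did not pass the test in astrocytes, with 12.6 and 13.9 FPKM and a log2 difference of 0.23 ± 0.16 (SE, adjusted p = 0.206, limma). The immediate-early genes, which rise with handling and stimulation, summed to 6938 and 8255 FPKM in astrocytes, and also to 6724 and 10362 FPKM in microglia, where the family was high; their part was not tested.

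Endothelial cells had high levels of the family. Against the mean of the other types 73 of 84 members were higher and 3 were lower (adjusted p under 0.05, limma), while 35.3% of all genes were higher and 38.6% lower, and the median log2 difference was 1.58, against -0.04 over all genes. Of the members, 66 were called higher by at least 1 on the log2 scale and 1 lower, against 18.5% and 18% of all genes. Both endothelial libraries lay above every other purified library in 41 of 84 members, against 15.1% of all genes.
Rpl38, a small large-subunit protein required in mice for normal patterning of the axial skeleton, stood apart. It was at 37.7 and 49.8 FPKM in endothelial cells, at 7.83 and 10.1 FPKM in microglia, and at 0.718 and 0.788 FPKM in astrocytes. Its endothelial values exceeded every other library, and its log2 difference was 3.25 ± 0.19 (SE, adjusted p = 1.34e-09, limma).
Rpl39, a short protein at the exit tunnel of the large subunit, was at 155 and 194 FPKM in endothelial cells against at most 95.5 FPKM elsewhere, a log2 difference of 2.73 ± 0.23 (SE, adjusted p = 9.4e-08, limma). Rps7, a small-subunit protein that also binds the p53 regulator Mdm2, was at 68.6 and 89.6 FPKM against at most 28 FPKM elsewhere, a log2 difference of 2.73 ± 0.22 (SE, adjusted p = 6.1e-08, limma). Neither gene overlapped with another group. The endothelial libraries carried 6875 and 9387 FPKM of erythroid genes, and their part was not tested.

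Microglia were also high. Against the mean of the other types 64 of 84 members were higher and 4 lower (adjusted p under 0.05, limma), while 24.9% of all genes were higher and 55.2% lower, and the median log2 difference was 1.09, against -0.44 over all genes. The members Rps9, Rplp1 and Rpl3 rose most. Rps9 was at 1276 and 1609 FPKM in microglia, above the 936 and 1086 FPKM of endothelial cells and without overlap, with a log2 difference of 2.16 ± 0.18 (SE, adjusted p = 5.87e-08, limma).
Rplp1, an acidic protein of the ribosomal stalk that recruits elongation factors, was at 563 and 943 FPKM in microglia against 345 and 496 FPKM in endothelial cells, with a log2 difference of 2.22 ± 0.23 (SE, adjusted p = 7.86e-07, limma). The microglial values exceeded every other library. Endothelial cells and microglia together lay above every other purified library in 53 of 84 members, against 6.48% of all genes. Of 76 core members tested, 52 had their highest mean in endothelial cells and 18 in microglia. No share over all genes was taken for these last counts.

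**Figure D2:**
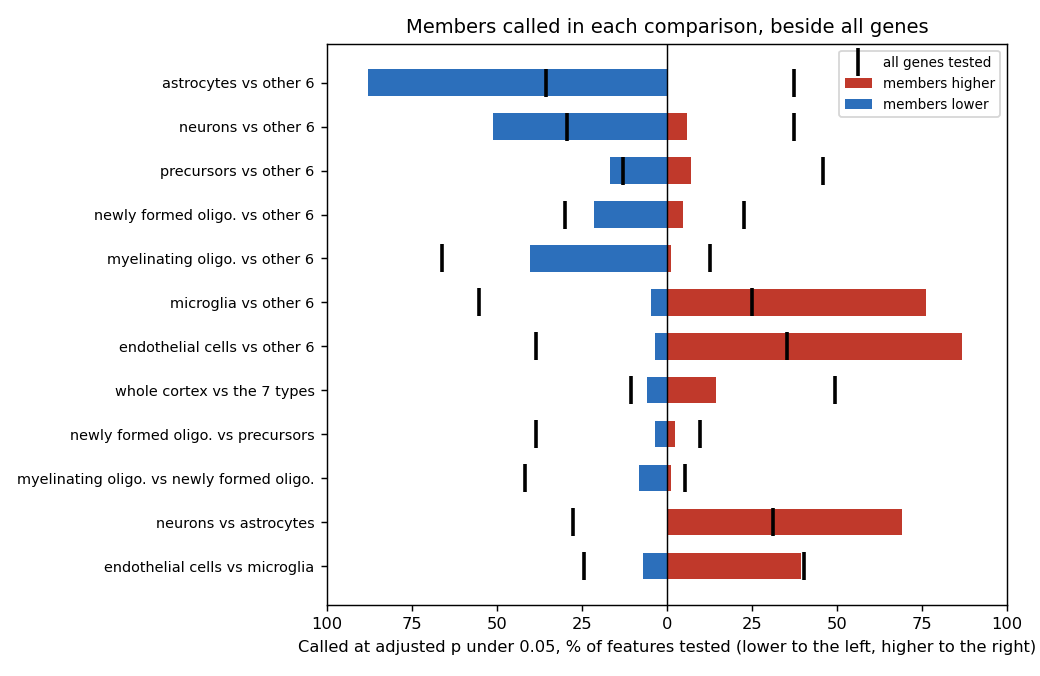
Bars give the percentage of the 84 members called lower (left) or higher (right) at adjusted p under 0.05 by limma in each comparison; black ticks give the same percentages over all 14011 genes tested. Members exceed the background where astrocytes (74 of 84), neurons (43 of 84) and, slightly, precursors (14 of 84) are low. They also exceed it where microglia (64 of 84) and endothelial cells (73 of 84) are high, and where neurons exceed astrocytes (58 of 84).

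Endothelial cells and microglia were set against each other after their high values had been seen. Of 84 members 33 were higher and 6 lower in endothelial cells, against 40.4% and 24.3% of all genes, so the higher calls were near the background. Over the 47 core members with a mean of at least 10 FPKM, the endothelial to microglial ratio had a median of 1.22 and ran from 0.0042 to 3.76. The scaling mattered, since median-of-ratios scaling gave 18 higher and 9 lower. Leaving out endothelial replicate 2 gave 23 calls in place of 39.

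Neurons lay low against the mean of the other types, which includes the high microglia and endothelial cells, but not beside each type. Their core shares (1.23% and 1.37%) lay within those of newly formed oligodendrocytes (1.01% and 1.63%) and above those of astrocytes. They overlapped with myelinating oligodendrocytes (1.18% and 1.26%). In FPKM the neuronal core sums (2519 and 2992) lay below the myelinating ones (3872 and 3744). Of 84 members 43 were lower and 5 higher against the mean of the others, while 29.4% of all genes were lower and 37.5% higher; the median log2 difference was -0.47, against 0.10 over all genes. This result depended on the scaling: bringing libraries to a common sum of FPKM gave 10 lower and 14 higher, and leaving out neuron replicate 1 gave 21 calls in place of 48. Against astrocytes directly, 58 of 84 members were higher in neurons and 0 lower, while 31.1% and 27.6% of all genes were. Without astrocyte replicate 1 or without neuron replicate 2 the count was 38.

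Among neuronal members Rps15a, Rps4y2 and Rpl5 were the highest against the mean. Rps15a, a small-subunit protein, was at 16.3 and 18.8 FPKM in neurons, at 4.87 to 10.7 FPKM in the precursors and newly formed oligodendrocytes and at 2.06 and 2.69 FPKM in myelinating oligodendrocytes. It was higher than in every other purified library and its log2 difference was 1.37 ± 0.19 (SE, adjusted p = 2.28e-05, limma). Rpl5, which with Rpl11 and 5S RNA binds Mdm2, was at 8.13 and 15.7 FPKM in neurons and overlapped with precursors, microglia and endothelial cells, with a log2 difference of 0.80 ± 0.20 (SE, adjusted p = 0.00282, limma) that was no longer called without neuron replicate 2 (adjusted p = 0.172, limma).

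Few members were called between the stages of the oligodendrocyte lineage, which does not show that their levels were equal. From precursors to newly formed oligodendrocytes 2 of 84 members rose and 3 fell, against 9.56% and 38.7% of all genes. From newly formed to myelinating oligodendrocytes 1 rose and 7 fell, against 5.43% and 41.8%. Both counts lay under the background, with median log2 differences of -0.13 and -0.02 for members and -0.35 and -0.38 for all genes. With median-of-ratios scaling the second step gave 27 higher and 2 lower, and with a common sum 0 higher and 14 lower, so the direction of that step followed the scaling; the first step gave 1 higher and 7 lower with a common sum.
Leaving out newly formed replicate 1 gave 14 calls for the second step, and leaving out myelinating replicate 1 or 2 gave 5 or 4. For the first step, leaving out precursor replicate 1, newly formed replicate 1 or newly formed replicate 2 gave 11, 8 or 12 calls in place of 5.
Rps15a fell from 4.87 and 10.7 FPKM to 2.06 and 2.69 FPKM in the second step, with a log2 difference of -1.30 ± 0.25 (SE, adjusted p = 0.000918, limma), and Rpl5 fell from 7.60 and 7.08 FPKM to 1.99 and 3.13 FPKM, with a log2 difference of -1.25 ± 0.26 (SE, adjusted p = 0.00154, limma). Their values did not overlap. Rpl13, a large-subunit protein, was at 11.9 and 29.5 FPKM in precursors and at 5.80 and 9.91 FPKM in newly formed oligodendrocytes, with a log2 difference of -1.21 ± 0.33 (SE, adjusted p = 0.00794, limma). That Rpl13 call was lost without precursor replicate 2 (adjusted p = 0.117, limma) and without newly formed replicate 1.

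Against the mean of the other types the stages gave mixed counts. Precursors gave 14 lower and 6 higher of 84, against 13% and 45.9% of all genes. Newly formed oligodendrocytes gave 18 lower and 4 higher, against 30% and 22.7%. Myelinating oligodendrocytes gave 34 lower and 1 higher, against 66.3% and 12.6%.
With median-of-ratios scaling the counts became 45 lower and 1 higher in precursors and 36 lower and 3 higher in newly formed oligodendrocytes. In myelinating oligodendrocytes they became 18 lower and 22 higher. The median log2 difference over all genes moved with this scaling. It went from 0.34 to 0.06 in precursors, -0.06 to -0.14 in newly formed and -0.60 to -0.32 in myelinating oligodendrocytes. A common sum gave 7 lower and 13 higher in precursors. Without newly formed replicate 1 or 2 the newly formed count of 22 became 12 or 38, and without precursor replicate 1 it became 34, while without myelinating replicate 1 or 2 the myelinating count of 35 became 21 or 23. The one member higher in myelinating oligodendrocytes was Rpsa, the laminin receptor precursor that is also a small-subunit protein.

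Whole cortex gave 12 higher and 5 lower of 84 against the mean of the purified types, while 49.3% and 10.6% of all genes were. Median-of-ratios scaling gave 6 higher and 15 lower, and a common sum gave 31 higher and 0 lower. Without whole cortex replicate 1, 2 or 3 the count of 17 became 9, 9 or 10, and without precursor replicate 2 it became 26. Rpl36a, a large-subunit protein encoded on the X chromosome, was at 4.495, 4.65 and 4.40 FPKM in whole cortex against at most 3.57 FPKM in any purified library, with a log2 difference of 1.48 ± 0.16 (SE, adjusted p = 2.16e-06, limma). Rpl24, a large-subunit protein, was at 6.68, 4.96 and 5.38 FPKM, overlapping with endothelial cells, with a log2 difference of 0.97 ± 0.15 (SE, adjusted p = 8.13e-05, limma).

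With a limit of at least 1 on the log2 scale beside the adjusted p, few members were called outside astrocytes, microglia and endothelial cells. In astrocytes 0 members were higher and 57 lower, against 17.5% and 13.6% of all genes. In microglia 45 were higher and 0 lower, against 15.2% and 28.1%. In neurons 2 were higher and 7 lower, against 18.9% and 10.3%.
In precursors 1 was higher and 0 lower, against 16.3% and 2.3%, and in newly formed oligodendrocytes 0 and 1, against 9.06% and 9.5%. In myelinating oligodendrocytes 1 was higher and 5 lower, against 6.07% and 31%, and in whole cortex 1 and 0, against 17.3% and 0.785%. Outside microglia and endothelial cells, few members passed this limit in the higher direction against a mean. They were Rps15a and Rps4y2 in neurons, Rpl13 in precursors, Rpsa in myelinating oligodendrocytes and Rpl36a in whole cortex.
The first lineage step gave 0 higher and 1 lower, against 5.25% and 18.4%, and the second 0 and 2, against 2.13% and 19.9%. Neurons exceeded astrocytes in 34 members and fell below them in 0, against 18.5% and 15.7%. Endothelial cells exceeded microglia in 13 members and fell below them in 4, against 27.3% and 15.9%.

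**Figure D3:**
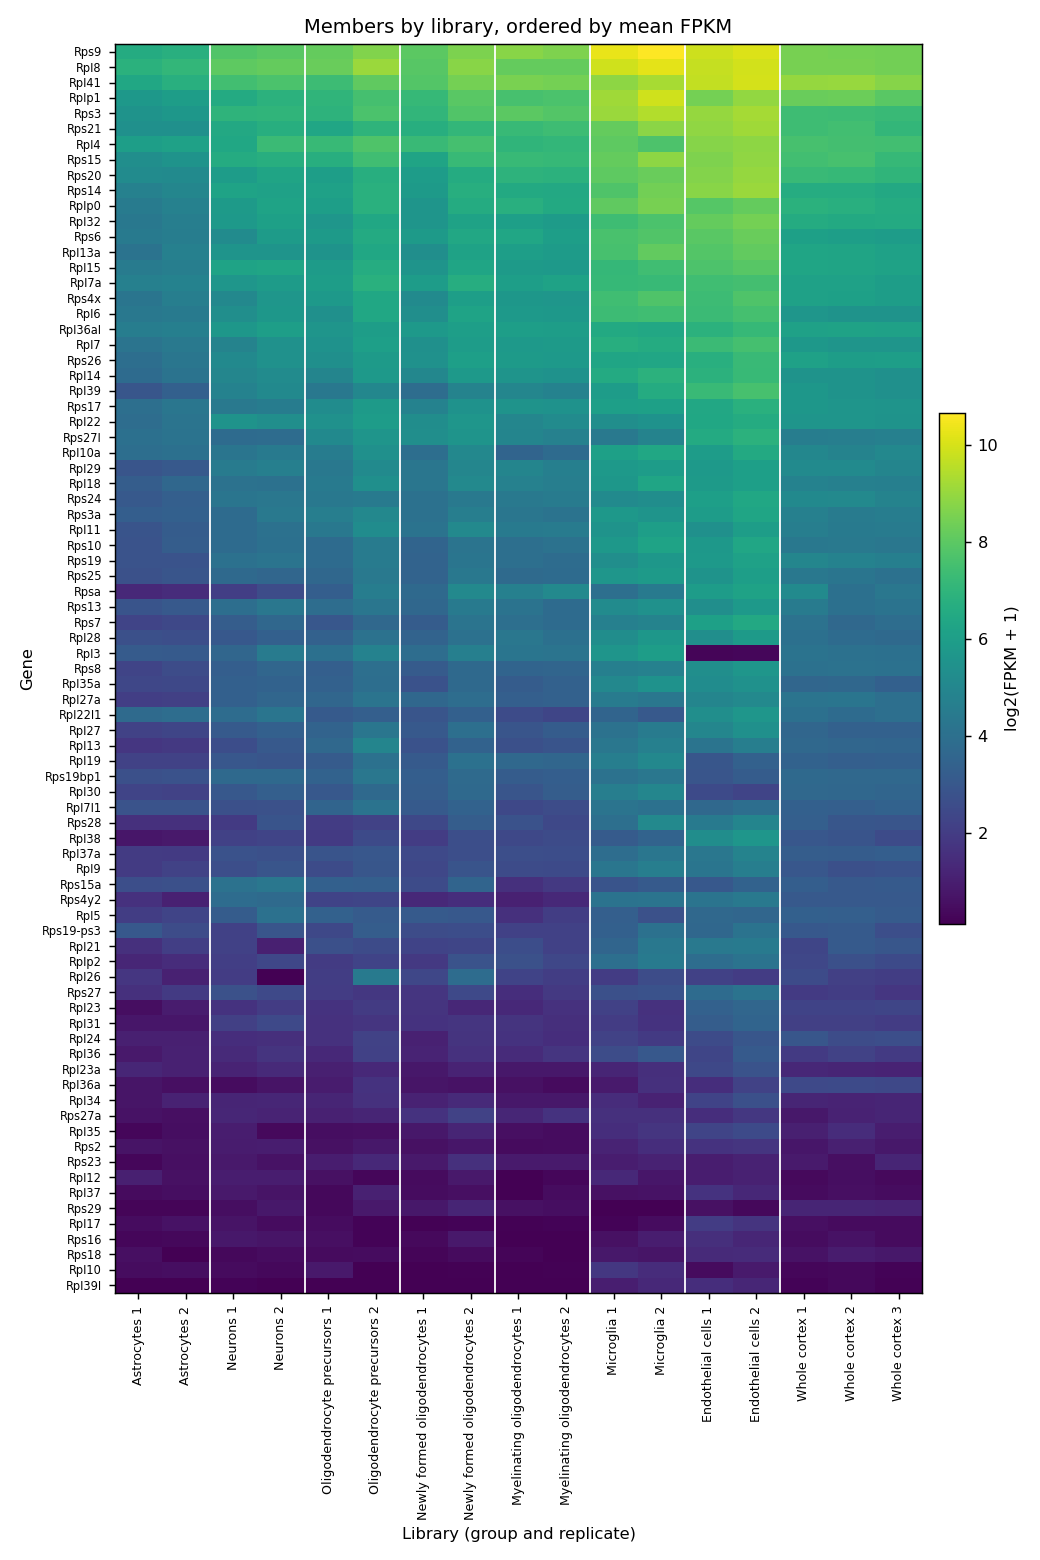
Rows are 81 of the 84 tested members ordered by mean FPKM, columns are the 17 libraries, and colour is log2(FPKM + 1). Most rows are lightest in microglia and endothelial cells and darkest in astrocytes; Rpl3 is dark in the endothelial columns (0.215 and 0.254 FPKM).

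FPKM of core members ran from 0.339 (Rps12) to 517 (Rps9) as means over the 17 libraries, a 1525-fold range, with a median of 19.95. The highest large-subunit members were Rpl8, Rpl41, Rplp1, Rpl4 and Rplp0, and among the highest small-subunit members were Rps9, Rps3 and Rps21, all at means from 128 to 517 FPKM. Among the lowest were Rpl10, Rpl17, Rpl37 and Rpl12 of the large subunit and Rps12, Rps18, Rps16, Rps29 and Rps23 of the small subunit, all at means from 0.339 to 0.949 FPKM. Rpl10, an essential protein that joins the large subunit late in assembly, was at 2.58 and 1.79 FPKM in microglia and at most 0.849 FPKM elsewhere.
Ribosomal protein genes have many near-identical copies and pseudogenes, so reads can be shared. Of the 50-base stretches of each core transcript (GENCODE M21), a median of 43.2% occurred in no other annotated gene. This used 1 transcript per gene, some of them long, such as 5179 bases for Rps15a and 3706 bases for Rps20. Whether that transcript is the one expressed was not tested, and the percentages depend on it. Members with under 10% unique stretches (5 genes) had a median mean of 4.81 FPKM, those with 10% to 50% (42 genes) 17.8 FPKM, and those with at least 50% (30 genes) 54.0 FPKM. Across these 77 genes, which share their libraries and are not independent replicates, Spearman's rho was 0.41 and Pearson's r on the log2 scale 0.44. How the counting assigned shared reads is not given in the sources used here, so levels compared between genes and those of low members such as Rps12, with 16.4% unique stretches and 25 other genes sharing them, are uncertain in particular; the share of such reads was not tested.

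**Figure D4:**
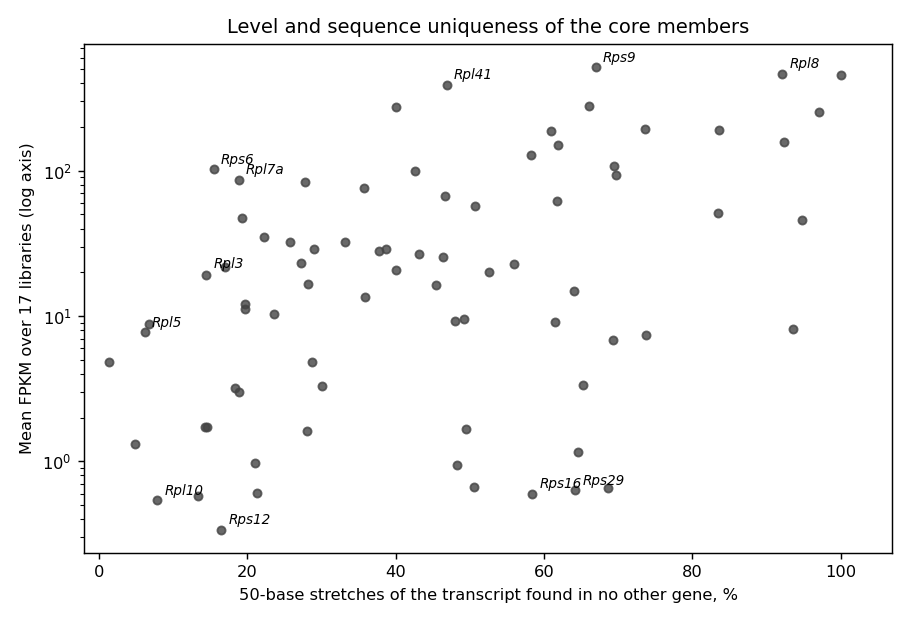
Each point is a core ribosomal protein gene; the x axis gives the percentage of its 50-base stretches found in no other annotated gene and the y axis, on a log scale, its mean FPKM over 17 libraries. Rpl8 (465 FPKM) lies at the upper right and Rps12 and Rpl10 (0.339 and 0.538 FPKM) at the lower left.

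Some members departed from the common pattern when each library was centred on the median of its core members. After this centring 63 of 84 members still differed among types by the F test, against 99.6% of all genes, where the centring itself uses the members; centring on their mean gave 79. The 8 tested members with the largest spread of group means were Rpl3, Rps15a, Rpl26, Rps29, Rpl22l1, Rpl30, Rpsa and Rps4y2.
Rpl3, which lies at the peptidyl transferase centre, was at 0.215 and 0.254 FPKM in endothelial cells, at 48.2 and 63.0 FPKM in microglia, and at 7.75 to 26.9 FPKM in all other libraries. The endothelial libraries therefore lay near the floor of 0.1 while Rpl3 was high everywhere else. The log2 difference was -4.01 ± 0.24 from the mean of the others (SE, adjusted p = 1.44e-09, limma) and -5.51 ± 0.31 from microglia (SE, adjusted p = 9.11e-10, limma). Of all genes, 8 had a mean under 0.5 FPKM in endothelial cells and above 5 FPKM in every other group, and Rpl3 was the one member. Of its 50-base stretches 14.4% occurred in no other gene, and shared reads were not tested.
Rpl30, a large-subunit protein, was at 4.65 and 3.96 FPKM in endothelial cells, against 23.7 and 30.4 FPKM in microglia and 3.67 to 12.4 FPKM in the remaining libraries. Its endothelial values lay just above the astrocyte values and below those of every other group, without overlap, with a log2 difference of -0.96 ± 0.18 (SE, adjusted p = 0.000248, limma). Rpl19, another large-subunit protein, was at 6.71 and 9.56 FPKM in endothelial cells against 23.7 and 32.1 FPKM in microglia, lower by 1.66 on the log2 scale (log2 difference -1.66 ± 0.30 SE, adjusted p = 0.000214, limma).

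Rpsa was at 1.51 and 1.79 FPKM in astrocytes and 3.26 and 5.04 FPKM in neurons. It was at 8.83 and 23.4 FPKM in precursors, 12.3 and 33.3 FPKM in newly formed, and 25.4 and 32.7 FPKM in myelinating oligodendrocytes. It reached 14.9 and 20.9 FPKM in microglia, 61.4 and 73.0 FPKM in endothelial cells and 34.7, 15.4 and 18.8 FPKM in whole cortex. Astrocytes and neurons lay below and endothelial cells above all other groups, without overlap. The log2 difference was -2.92 ± 0.36 in astrocytes (SE, adjusted p = 5.99e-06, limma), -1.82 ± 0.36 in neurons (SE, adjusted p = 0.000425, limma) and 1.16 ± 0.36 in myelinating oligodendrocytes (SE, adjusted p = 0.00848, limma). The last of these calls was lost without myelinating replicate 2 (adjusted p = 0.0918, limma).
Rpl26, a large-subunit protein that also binds p53 mRNA, was at 3.19 and 21.3 FPKM in precursors and 3.07 and 0.1 FPKM in neurons, so its replicates stood far apart. It did not pass the F test on its levels (adjusted p = 0.0598, limma) and passed it after centring (adjusted p = 0.000501, limma). Rps29, a small-subunit protein, was listed at 0.109 and 0.13 FPKM in microglia and at 1.28 to 1.33 FPKM in whole cortex, so that its differences rest on values near the floor.

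**Figure D5:**
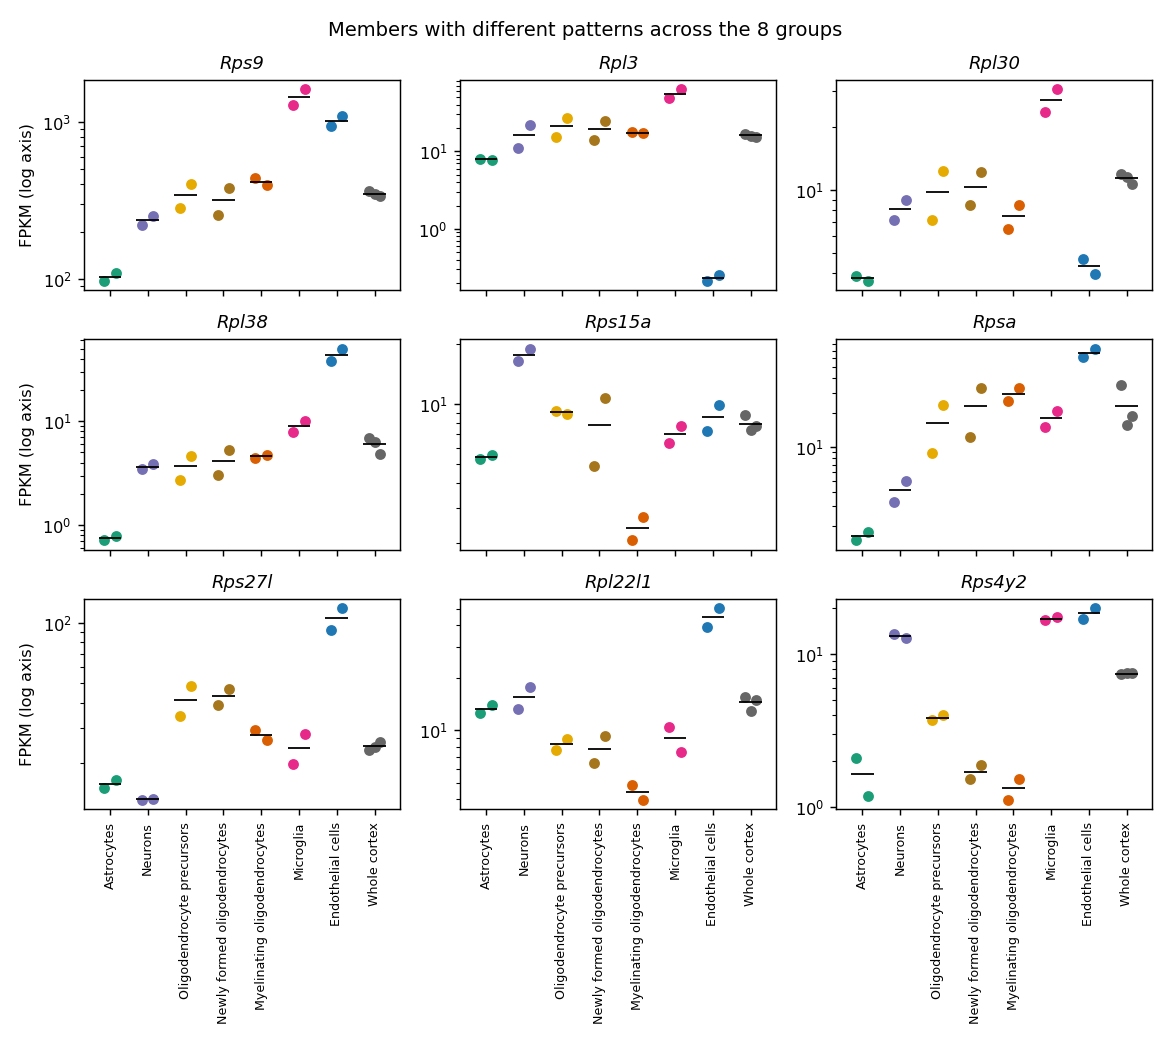
Panels show 9 members; points are libraries by group, bars are group means, and the y axis is FPKM on a log scale. Rps9 follows the common pattern, Rpl3 drops to 0.215 and 0.254 FPKM in endothelial cells, Rpl38 rises to 37.7 and 49.8 FPKM there, and Rps15a is highest in neurons.

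The paralogs did not follow their core partners in every type. Of 8 paralogs 6 were tested, and Rpl10l and Rpl3l, known as a testis gene and a muscle gene, were at or near the floor in all libraries (0.1 FPKM throughout for Rpl10l and 0.1 to 0.334 FPKM for Rpl3l). Against the mean of the others all 6 tested were higher in endothelial cells, while 35.3% of all genes were. Of these, Rpl39l passed the filter only through microglia and endothelial cells, so its call does not count as separate support.
Rps27l, a p53-inducible paralog of Rps27, was at 92.5 and 118 FPKM in endothelial cells, 19.8 and 27.8 FPKM in microglia, 13.2 and 13.4 FPKM in neurons and 15.05 and 16.6 FPKM in astrocytes. Its endothelial values exceeded every other library, and its log2 difference from microglia was 2.11 ± 0.20 (SE, adjusted p = 3.29e-07, limma). Core gene Rps27 was at 13.0 and 16.5 FPKM in endothelial cells and 5.60 and 5.996 FPKM in microglia. Of its 2 listed isoforms the protein-coding one was at 0.1 FPKM in every library, so this signal came from the one labelled non-coding. Of its 50-base stretches 1.35% occurred in no other gene, against 77.6% for Rps27l. The part of shared reads in this comparison of Rps27 with Rps27l was not tested.
Rpl22l1, a paralog of the large-subunit protein Rpl22, was at 39.1 and 50.2 FPKM in endothelial cells, 10.5 and 7.497 FPKM in microglia and 4.83 and 3.99 FPKM in myelinating oligodendrocytes, with a log2 difference from microglia of 2.20 ± 0.21 (SE, adjusted p = 3.85e-07, limma). Both Rps27l and Rpl22l1 were called lower in microglia than in the mean of the others, by 0.44 and 0.39 on the log2 scale, and lost that call under 2 and 12 of the alternatives tried.
Rps4y2, which in the annotation lies on chromosome 6 and not on Y, was at 13.6 and 12.8 FPKM in neurons, 16.6 and 17.4 FPKM in microglia and 16.996 and 19.9 FPKM in endothelial cells. It was at 2.10 and 1.18 FPKM in astrocytes, 3.71 and 3.97 FPKM in precursors, 1.52 and 1.88 FPKM in newly formed and 1.12 and 1.53 FPKM in myelinating oligodendrocytes. The purified types fell into high and low sets without overlap. The log2 difference of neurons from astrocytes was 2.45 ± 0.18 (SE, adjusted p = 2.89e-08, limma). Its partner Rps4x was at 32.0 and 50.3 FPKM in neurons and 17.7 and 23.6 FPKM in astrocytes.
Rpl36al, a close copy of Rpl36a with which it can share reads, was at 117 and 143 FPKM in endothelial cells and 23.3 and 24.8 FPKM in astrocytes. Rpl39l, a paralog of Rpl39, was at 1.03 and 1.52 FPKM in microglia and 1.87 and 1.40 FPKM in endothelial cells and at most 0.288 FPKM in every other library. Rpl7l1, a paralog of Rpl7, had its highest mean in microglia, at 17.4 and 15.7 FPKM, which overlapped with precursors at 10.4 and 16.6 FPKM.

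The stalk proteins Rplp0, Rplp1 and Rplp2 had their highest mean in microglia and their lowest in astrocytes. Rplp0 was at 21.7 and 26.4 FPKM in astrocytes, 268 and 364 FPKM in microglia and 236 and 286 FPKM in endothelial cells. Rplp2 was at 1.43 and 1.80 FPKM in astrocytes, 14.6 and 21.3 FPKM in microglia and 14.1 and 16.8 FPKM in endothelial cells. For Rplp0 and Rplp2 the microglial and endothelial values overlapped, and for Rplp1 they did not. Rps19, Rps14, Rps24 and Rpl11, mutated or lost in human disorders of red cell production, were each lower in astrocytes by limma (log2 differences of -1.77, -2.23, -1.60 and -1.86) and higher in endothelial cells (1.92, 2.52, 1.94 and 1.27). Rps6, the substrate of S6 kinase, was at 21.3 and 23.4 FPKM in astrocytes and 249 and 303 FPKM in endothelial cells. Rpl22, without which mice are viable, was at 39.3 and 43.7 FPKM in microglia, within the range of neurons and oligodendrocytes, and did not pass the test there (log2 difference 0.03 ± 0.15 SE, adjusted p = 0.847, limma).

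Isoform shares were compared by limma's diffSplice over 539 genes, of which Rps24 was the one member with enough isoform signal. It was called in 0 of 12 comparisons when a share difference of at least 20 points was required, and the largest difference was 7.38 points. Its adjusted p was under 0.05 in 5 comparisons, at lowest 0.00019 for microglia, and 0.655 for endothelial cells; under the same 20-point rule 3.53% to 25% of the genes were called. One of its 3 isoforms held 8.38% and 7.39% of the Rps24 signal in microglia and 6.58% and 6.49% in endothelial cells, and at most 1.45% in every other library. Those 4 libraries stood above all others.

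Other genes of translation were compared with the same fit. The lists share genes, among them Eif3e, which is both an initiation factor and a TOP mRNA here, so their counts are not separate results. Fau and Gnb2l1, which encodes the ribosome-bound scaffold RACK1, were lower in astrocytes and higher in microglia and endothelial cells. Gnb2l1 had means of 77.7 ± 7.95 FPKM in astrocytes, 900.5 ± 160 FPKM in microglia and 835.1 ± 95.9 FPKM in endothelial cells (SD, n = 2 each). Of 19 other TOP mRNAs 15 were lower and 0 higher in astrocytes, where 35.7% of all genes were lower and 37.3% higher. In endothelial cells 17 were higher and 0 lower, against 35.3% and 38.6% of all genes, and in microglia 12 were higher and 5 lower, against 24.9% and 55.2%. Tpt1, a TOP mRNA for a growth-related protein, had means of 14.4 ± 1.22 FPKM in astrocytes and 143 ± 7.61 FPKM in endothelial cells (SD, n = 2 each).
The other lists are read against the same shares over all genes. Of 41 ribosome biogenesis factors 10 were higher and 9 lower in astrocytes, and 11 higher and 11 lower in microglia. In endothelial cells 17 of them were higher and 10 lower, and in myelinating oligodendrocytes 1 was higher and 32 lower, where 12.6% and 66.3% of all genes were. Their higher counts in microglia and endothelial cells were near the shares over all genes.
Of 38 initiation factors 6 were higher and 22 lower in astrocytes, and 24 higher and 1 lower in endothelial cells. In microglia 10 were higher and 17 lower, near the shares over all genes. Of 7 snoRNA host RNAs with TOP tracts 4 were higher and 0 lower in neurons, where 37.5% and 29.4% of all genes were, and also 4 and 0 in endothelial cells. In microglia 0 of them were higher and 5 lower, and in myelinating oligodendrocytes 0 and 6. Eef1a2, the neuronal and muscle form of the elongation factor, had a mean of 180 ± 15.3 FPKM in neurons and 0.564 ± 0.109 FPKM in astrocytes (SD, n = 2 each).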

How the data were processed

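PolyA RNA from 17 libraries was sequenced as paired-end reads. The authors deposited FPKM per gene and per isoform; values under 0.1 are listed as 0.1. CASAVA, Cufflinks 1.3.0, Bowtie 0.12.7 and TopHat 1.3.3 are named, with mm9, per the submitters' processing notes; how shared reads were assigned is not given in the sources used here. Whole reads could not be recovered from the FPKM (in each group at most 10 of at least 1778 low genes shared a ratio window, against at most 7 after shuffling), so the depth is unknown and no counting interval is given. The files had no unused sample columns.

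Genes with at least 1 FPKM in at least 2 libraries (14011 of 22462) entered a limma fit (3.58.1, under R 4.3.3) of log2(FPKM + 1), a cell-means model of the 8 groups over all 17 libraries with a trended prior variance. Adjustment was by Benjamini-Hochberg over all genes. Relative patterns subtract each library's median of the core members. Members and lists were chosen with earlier results of these data known. The comparison of endothelial cells with microglia was added after values were seen. Named members were the 5 highest and 5 lowest of each subunit, every paralog, up to 3 rises and falls per comparison, the 8 with the widest relative pattern, 13 of known roles, up to 3 per other translation list, and those with isoform shifts, of which a few are not reported here; Rpl19, Rps27 and Rps4x, and the start regions of Rpl13a and Rpl15, were chosen after values were seen. The tests were checked on simulated data with changes placed in astrocytes, microglia or endothelial cells. Of log2 rises of 0.5 the tests recovered 18%, 26% and 24%, and of rises of 1 they recovered 68%, 76% and 84%. The simulation left 13811 of 14011 genes unchanged, whereas 98.6% of genes differed among the types here. The adjusted p therefore behaves differently, and these rates do not give the power of the reported tests. Sequences came from the RefSeq promoter table (GRCm38.p6) and 50-base uniqueness from GENCODE M21 transcripts. Tables and figures used Python 3.11.15, pandas 2.3.3, numpy 2.4.6 and matplotlib 3.10.9.

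Alternatives were a pseudocount of 0.1, no filter or one at 5 FPKM, median-of-ratios scaling, a common sum of FPKM, a constant prior variance, purified types only, a replicate block, an added log2 limit of 1, and each library left out.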

Additional observations from a re-analysis of the deposited data

How the results depend on the processing

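Counts of called members in astrocytes (74) and endothelial cells (76) stayed within 1.5 times under all alternatives; they ran from 66 to 77 and from 70 to 78 with a library left out. Leaving out a library gave 21 to 56 calls in neurons, 17 to 24 in precursors, 12 to 38 in newly formed and 21 to 40 in myelinating oligodendrocytes, 61 to 69 in microglia, 9 to 26 in whole cortex, 4 to 12 and 4 to 14 for the lineage steps, 38 to 60 for neurons against astrocytes and 23 to 43 for endothelial cells against microglia. The F test over types gave 78 to 84 members, and after centring 52 to 62. With a log2 limit of 1, counts fell to 9 in neurons, 1 in precursors, 1 in newly formed and 6 in myelinating oligodendrocytes, 45 in microglia, 1 in whole cortex, 1 and 2 for the lineage steps, 34 for neurons against astrocytes and 17 for endothelial cells against microglia. With a common sum of FPKM they were 24 in neurons, 31 in whole cortex and 8 and 14 for the lineage steps. With median-of-ratios scaling they were 46 in precursors, 39 in newly formed oligodendrocytes and 29 for the second lineage step. A filter at 5 FPKM gave 14 in newly formed and 23 in myelinating oligodendrocytes and 3 for the first step; no filter gave 11 in whole cortex and 5 for the second step; purified types only gave 3 for the first step. A common sum moved the median log2 difference of all genes from 0.02 to 0.31 in astrocytes and from -0.44 to -0.72 in microglia. The cause of these moves was not tested. Shares of all genes called were counted for the main settings and the log2 limit of 1 only.

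Without the 10 most abundant other genes the core share was 1.93% in myelinating oligodendrocytes, 3.39% in microglia and 4.32% in endothelial cells. By median core FPKM, neurons (10.5) and myelinating oligodendrocytes (13.0) changed places in the order of groups. Of 1509 alternative values for 61 named member differences 0 reversed and 94 lost the call. Replicate numbers were not taken to pair the libraries, since 6 of 21 pairs of types had a correlation of deviations over 0.1 (range -0.25 to 0.73), although core members were mostly higher in replicate 2 in 6 of 7 types. A replicate block gave 53 calls in neurons, 30 in newly formed oligodendrocytes and 65 in microglia, and moved no count by over 1.5 times. Depth is unknown, so low members carry an unknown counting error.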
